A study of Homo sapiens with 8 samples.

Results

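The T loop of the type I tRNAs, the tRNAs with a short variable loop, was followed through 8 iCLIP libraries of 2 human dihydrouridine synthases. Its members were chosen by place alone: crosslink sites on the sense strand at positions 54 to 60 of any cytosolic tRNA reference other than leucine, serine and selenocysteine tRNA, with the first base of the reference as position 1. The rule found 487 sites, each 1 position of 1 reference, among 16258 sense-strand sites in all. They lay on 97 of 214 type I references and in 33 of 40 families, where a family is all references of 1 amino acid and anticodon. Summed by family they filled 205 of 231 possible places and held 217111 counts.

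iCLIP crosslinks a protein to RNA, isolates it and reads the contact position from where reverse transcription ended. The host was Flp-In T-REx 293, an established line of human embryonic kidney origin, carrying a tetracycline-inducible 3xFLAG-tagged DUS1L or DUS2L. All 4 groups, untreated ones included, carried the tag and received 1 µg/mL tetracycline for 12 h and again after a medium change. The new medium also held 100 µM 5-chlorouridine (5-ClUrd), for 12 h, in the treated groups only. Each group (untreated DUS1L, treated DUS1L, untreated DUS2L, treated DUS2L) had 2 libraries, described by the series as biological replicates, and the labels used here do not say what happened to the cells' own enzymes. The p-values measure the spread between these libraries.

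A tRNA folds into an acceptor stem and 3 hairpin arms named for the D loop, the anticodon loop and the T loop, and the D and T loops touch at the corner of the folded molecule. Dihydrouridine synthases reduce uridine to dihydrouridine and are best known for the D loop and its surroundings. The T loop carries other modified bases in most tRNAs: 5-methyluridine at base 54, pseudouridine at base 55 and often 1-methyladenosine at base 58, a base that can stop reverse transcriptase.

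Base 54 of the standard numbering is not always position 54 of a reference, because D loops and variable loops differ in length. Sequences could be read for 14 tRNA genes that lie whole inside a promoter window of a neighbouring gene in RefSeq (GRCh38.p14), and 13 of these were type I. Each of the 14 held the motif GTTCNANNC once, both strands searched; 2626 of 35116 promoter windows, or 7.48%, hold it too. The motif places the bases and itself fixes A at base 58. Only 2 of the 13 type I genes had base 54 at position 54. The sequences below are 5′ to 3′ with the 7 bases of the T loop in capitals. They show the loop in genes of 71 to 74 nt, where it moves along the reference.
tRNA-Gly-CCC-2-2: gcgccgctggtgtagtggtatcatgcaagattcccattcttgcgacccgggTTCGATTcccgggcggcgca
tRNA-His-GTG-1-3: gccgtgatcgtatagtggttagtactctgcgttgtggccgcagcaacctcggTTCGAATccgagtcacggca
tRNA-Phe-GAA-1-5: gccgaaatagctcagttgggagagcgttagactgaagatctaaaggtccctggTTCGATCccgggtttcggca
tRNA-Asn-GTT-6-1: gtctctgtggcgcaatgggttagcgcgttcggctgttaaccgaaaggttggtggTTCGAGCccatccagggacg

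tRNA-Gly-CCC-2-2 (chr16:636736-636806, minus strand, 71 nt) has base 58 at position 56, and 1247 of the 1961 counts that its reference held at positions 50 to 64 fell there. tRNA-Asn-GTT-6-1 (chr1:143735920-143735993, minus strand, 74 nt) has base 58 at position 59, with 1436 of 1939 counts. Both references peaked at base 58. The labels do not say whether a site is the base where a read stopped or the one before it, so every place named by base number could lie one base off. The sequences of the references were not at hand either. Position 1 of a reference was taken as the first base of its gene. tRNA-His-GTG-1-3 (chr1:148281365-148281436, plus strand, 72 nt) has base 58 at position 57, but its reference of 9 gene copies peaked one base later, at position 58. tRNA-Phe-GAA-1-5 (chr13:94549650-94549722, minus strand, 73 nt) has base 58 at position 58 and no count there; its 6539 counts peaked at position 54, and the last position with a count was 56.

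A second set of genes shows where counts end. These tRNAs held many counts and none in the T loop.
tRNA-Asn-GTT-4-1: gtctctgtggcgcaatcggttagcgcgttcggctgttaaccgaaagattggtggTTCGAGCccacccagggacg
tRNA-Arg-ACG-2-1: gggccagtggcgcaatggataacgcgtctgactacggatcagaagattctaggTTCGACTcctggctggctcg
tRNA-Ala-AGC-2-2: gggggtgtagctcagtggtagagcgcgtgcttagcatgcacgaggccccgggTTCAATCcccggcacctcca

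tRNA-Asn-GTT-4-1 (chr1:16889677-16889750, plus strand, 74 nt) differs from tRNA-Asn-GTT-6-1 by C17G, A47G and C65T, with positions counted from the 5′ end of the gene, the base of 4-1 first and that of 6-1 last. Their T loops are the same. The reference of 4-1 held 9635 counts in all, the last at position 46, and that of 6-1 held 9309, the last at position 64. tRNA-Arg-ACG-2-1 (chr3:45688999-45689071, minus strand) held 21195 counts that ended at position 49, and tRNA-Ala-AGC-2-2 (chr6:28863685-28863756, minus strand) held 34069 that ended at position 45. Of the 214 type I references, 117 had no count beyond position 53, 50 ended inside the window and 47 went beyond position 60; the last held 63.8% of the T-loop counts. The 7 families without a T-loop count were tRNA-Ala-TGC, tRNA-Arg-ACG, tRNA-Asn-26, tRNA-Pro-AGG, tRNA-Pro-CGG, tRNA-Pro-TGG and tRNA-iMet-CAT, and they ended between positions 35 and 53. The Arg-ACG family held 60033 counts. References can be near-identical, as the asparagine pair is, and the labels do not say how a read that matches several was assigned, so values are given by family.

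Library depth set the precision. Sense counts, all on tRNA and rRNA, ranged from 7369 in the second untreated DUS1L library to 824657 in the first treated one, and the other 3 untreated libraries held 130011 to 172078. The T loop held 30974 and 583 counts in untreated DUS1L, 79109 and 61211 in treated DUS1L, 2455 and 4919 in untreated DUS2L, and 14181 and 23679 in treated DUS2L. A count of 0 allows up to 0.0422% of type I counts in the shallow library and at most 0.00443% in any other, where the allowance is 3 counts and covers counting error only. Antisense counts at these positions were at most 0.244% of the sense ones. Replicate counts differed beyond sampling noise in every group, with a chi-square per degree of freedom of 4.84 to 6.17 in 3 groups and 42.6 in treated DUS1L.

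The T loop took 21.9% and 8.20% of type I tRNA counts in untreated DUS1L, 10.6% and 12.6% in treated DUS1L, 3.62% and 5.43% in untreated DUS2L, and 5.37% and 8.80% in treated DUS2L. Its share was higher in each DUS1L library than in each DUS2L library of the same treatment. Treated and untreated libraries overlapped in both enzymes. Counting intervals (Wilson, 95%) were narrow beside this spread, from 7.58% to 8.86% for the shallow library and from 10.6% to 10.7% for the deepest.

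With 5-ClUrd the mean share went from 15.1% ± 9.72 to 11.6% ± 1.39 in DUS1L and from 4.53% ± 1.27 to 7.09% ± 2.42 in DUS2L (SD, n = 2 each). The differences were -3.47 points (p = 1) and 2.56 points (p = 0.667) by an exact two-sided permutation test, which cannot go below 0.333 with 2 against 2. DUS2L minus DUS1L was -4.52 points with and -10.5 points without the analogue (exact permutation test, p = 0.333 each). Without the first untreated DUS1L library the DUS1L difference was 3.41 points. The names of the deposited DUS2L files mention premapping to non-coding RNA and those of DUS1L do not, so enzyme and file making cannot be told apart.

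Other parts of the same tRNAs set this level in proportion. The D loop (positions 14 to 21) took 10.8% and 14.96% in untreated DUS1L, 20.6% and 20.5% in treated DUS1L, 28.4% and 28.9% in untreated DUS2L, and 27.4% and 25.1% in treated DUS2L. The anticodon loop (32 to 38) ranged from 8.94% to 34.9% over the 8 libraries. The 5′ end (1 to 9) took 2.59% to 8.76% in DUS1L and 29.3% to 34.7% in DUS2L. Beyond the T loop little was counted: positions 61 to 65 held at most 0.50% in any library. Counts on the T loop thus stood at the 3′ edge of what the libraries covered.

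**Figure D1:**
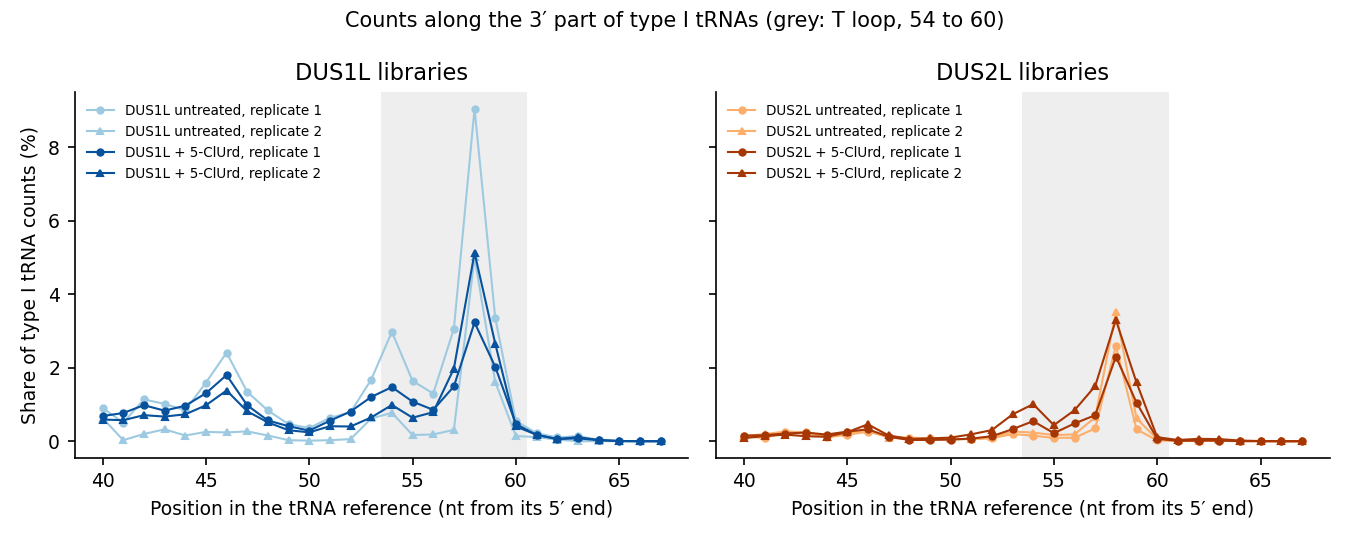
Share of type I tRNA counts (%, y axis) at each position in the 3′ part of the reference (x axis), one line per library, DUS1L on the left and DUS2L on the right, with the T loop shaded. Positions 61 to 65, right of the shaded region, sum to at most 0.50% in any library, and the region itself sums to 8.20% to 21.9% in the DUS1L libraries and 3.62% to 8.80% in the DUS2L libraries.

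Within the loop, position 58 led in every library. It held 41.3% and 61.1% of T-loop counts in untreated DUS1L, 30.4% and 40.8% in treated DUS1L, 71.7% and 64.7% in untreated DUS2L, and 42.9% and 37.5% in treated DUS2L. Every treated library was below every untreated library of its enzyme. The treated libraries were also deeper, and no T-loop site of a single reference held more than 1119 counts in any library. Such sites above 900 counts numbered 0 and 1 in untreated and 4 and 6 in treated DUS2L. In DUS1L they numbered 6 and 0 untreated and 26 and 25 treated. The part of this in the lower share of position 58 was not tested. In DUS2L other positions held larger shares with the analogue. Position 54 went from 4.11% and 4.35% to 10.1% and 11.5%, and position 56 from 2.61% and 3.44% to 8.998% and 9.59%. These DUS2L shares did not overlap between the groups (exact two-sided permutation test, p = 0.333, the smallest possible; 7 positions compared in each enzyme). In DUS1L position 54 held 13.6% and 9.43% untreated and 13.9% and 7.84% treated, which overlapped. Position 60 held at most 4.40% of T-loop counts in any library.

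The families did not share one leading position. Position 58 led in 12 of 33 families, among them 4 arginine and 3 valine families, tRNA-His-GTG and tRNA-Met-CAT. Position 57 led in 8, and position 59 in 7: tRNA-Asn-GTT, 3 isoleucine and 3 threonine families. Position 56 led in tRNA-Ala-CGC, tRNA-Gly-CCC and tRNA-Gly-GCC. Position 54 led in tRNA-Asp-GTC, tRNA-Lys-CTT and tRNA-Phe-GAA.

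Much of this spread followed gene length. RefSeq gave a usable length for 185 type I references, which held 83.5% of T-loop counts, and base 58 was placed 15 bases before the last base. Of 51 references with at least 200 counts at positions 50 to 64, the highest position was base 58 in 40: 2 of 4 at 71 nt (position 56), 9 of 12 at 72 nt (position 57), 20 of 24 at 73 nt (position 58) and 9 of 11 at 74 nt (position 59). The peak on base 58 appeared in untreated and treated groups alike. It was met in 33 of 40 references in untreated DUS1L, 39 of 47 in treated DUS1L, 21 of 27 in untreated DUS2L and 36 of 46 in treated DUS2L, with at least 20 counts each. What sets the place of the peak was not tested.

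**Figure D2:**
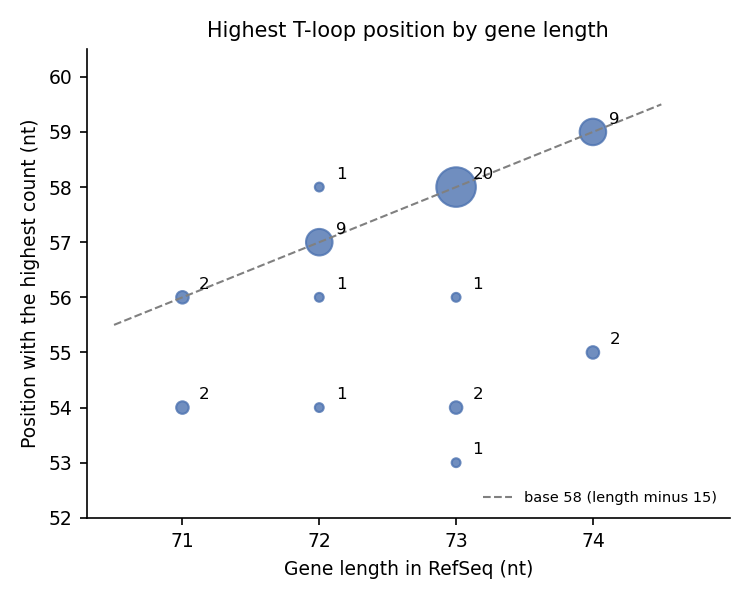
Position with the most counts between 50 and 64 (y axis) against gene length in nt (x axis), for references with at least 200 counts; the size of a point and the number beside it give how many references share it, and the dashed line marks base 58. Of 51 references 40 lie on the line.

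Renumbered by gene length, base 58 held 54.4% and 79.7% of T-loop counts in untreated DUS1L, 43.95% and 57.6% in treated DUS1L, 50.0% and 58.8% in untreated DUS2L, and 63.99% and 62.2% in treated DUS2L. In this numbering DUS2L was higher with the analogue, the opposite of position 58. The reversal came with 1 family, and it rests on taking the first position of that reference as the first base of its gene, which could not be checked. Base 59, where the counts of tRNA-His-GTG peaked, held 34.2% and 23.3% of all T-loop counts in untreated DUS2L against 9.95% and 6.48% in treated DUS2L. With histidine tRNA left out, base 58 held 79.0% and 79.9% in untreated DUS2L and 71.3% and 67.1% in treated DUS2L, and base 59 held 1.62% to 2.66% in all 4 libraries. With histidine tRNA included, base 54 went from 6.24% and 6.31% to 10.6% and 12.3% in DUS2L. With it left out, base 54 held 10.0% and 8.75% untreated and 11.7% and 13.2% treated.

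**Figure D3:**
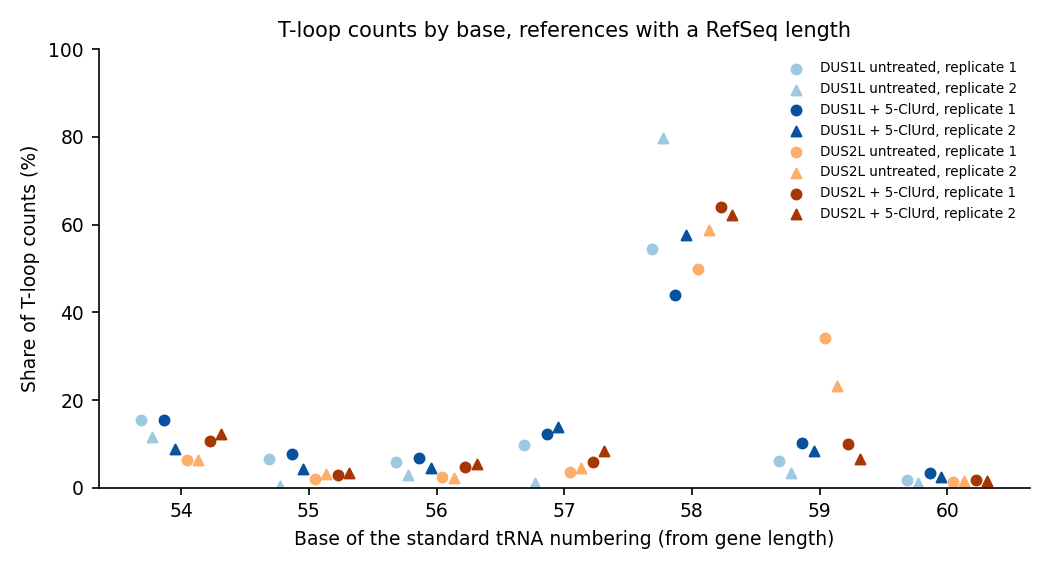
Share of T-loop counts (%, y axis) at each standard base placed by gene length (x axis), one point per library, with the group as colour and the replicate as marker. Base 58 is the highest in all 8 libraries, and base 59 reaches 34.2% and 23.3% in the untreated DUS2L libraries only.

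The 2 enzymes drew their T-loop counts from partly shared tRNAs in different proportions. Among the 12 families with most treated T-loop counts of both enzymes were tRNA-Ala-AGC, tRNA-Arg-CCT, tRNA-Asn-GTT, tRNA-Ile-TAT, tRNA-Lys-TTT, tRNA-Met-CAT, tRNA-Thr-TGT and tRNA-Val-CAC. Arginine tRNAs held 54.3% of T-loop counts in untreated DUS1L and 45.3% in treated DUS1L, against 16.7% and 10.7% in DUS2L (group means). tRNA-Arg-TCG alone gave 24.3% and 23.3% untreated and 14.3% and 13.2% treated in DUS1L, and 11.2%, 13.7%, 3.27% and 4.64% in the same order in DUS2L. tRNA-Arg-TCT gave 12.4% to 18.2% in the DUS1L libraries and 1.42% to 3.42% in the DUS2L libraries. In untreated DUS2L, tRNA-His-GTG led with 40.7% and 31.9%, and with the analogue it gave 12.0% and 9.98%; in DUS1L it gave at most 1.55%. tRNA-Val-CAC, the other main DUS2L family, gave 22.1% and 24.0% untreated and 20.6% and 17.1% treated. In DUS1L it gave 9.36% and 8.23% untreated and 5.36% and 5.62% treated.

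tRNA-Gly-GCC and tRNA-Glu-TTC were a larger part of the DUS2L loop with the analogue. tRNA-Gly-GCC gave 0.29% and 0.57% of T-loop counts in untreated DUS2L and 7.70% and 7.98% in treated DUS2L. tRNA-Glu-TTC gave 1.79% and 2.81% and then 5.66% and 7.09%. Both were at most 0.34% in every DUS1L library. These are shares of one whole, so a family that takes more leaves less for the others.

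Set against its own family, the T loop was a large part of a few tRNAs. In tRNA-Thr-TGT it held 65.7% and 51.3% of the family's counts in untreated DUS1L, 20.7% and 25.6% in treated DUS1L, 10.0% and 14.3% in untreated DUS2L, and 16.4% and 23.0% in treated DUS2L. In tRNA-Ile-TAT, whose genes can carry an intron, the shares were 48.3% and 44%, 18.4% and 19.7%, 21.3% and 30.3%, and 28.8% and 50.3%. In tRNA-Met-CAT, the elongator methionine tRNA, they were 52.6% and 42.2%, 15.5% and 26.6%, 25.7% and 35.9%, and 19.9% and 16.1%. These 3 families were low with the analogue in DUS1L with no overlap, and in DUS2L only the methionine family was low. The gene of tRNA-Ile-TAT-2-2 is 94 nt long and has base 54 at position 75. Whether its reference holds the intron could not be checked, so positions 54 to 60 may not be the T loop in the tRNA-Ile-TAT family.

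The T loop outweighed each of 12 other stretches of its tRNA in few families. Among families with at least 100 counts it did so in 3 of 26 in untreated DUS1L (the 3 just named), in 3 of 36 in treated DUS1L (tRNA-Arg-TCG, tRNA-His-GTG and tRNA-Thr-TGT), in 0 of 33 in untreated DUS2L and in 1 of 39 in treated DUS2L (tRNA-Ile-TAT).

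Whether 5-ClUrd moved the loop within its family was tested with the family's total as the base, so that a change of the whole tRNA drops out. In DUS2L, 8 of 29 T-loop windows rose and 0 fell, against 8.38% higher and 3.89% lower of all 489 family windows. Their median log2 change was 1.30, and that of all windows 0.32. In DUS1L, 0 of 30 passed in either direction by edgeR's quasi-likelihood test, against 0.223% higher and 0.445% lower of 449 windows; 1 had an unadjusted p under 0.05, and DESeq2 called 0 with 2 such. The DUS1L median was -0.21, and that of all windows 0.85. Without the first untreated DUS1L library 6 windows were higher and 4 lower, and without the second 12 were lower.

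Of the 3 glycine families with T-loop counts, tRNA-Gly-GCC and tRNA-Gly-CCC rose and tRNA-Gly-TCC, with 1 and 0 untreated and 0 and 4 treated counts in the loop, had too few for the test. The T loop held 0.749% and 2.52% of tRNA-Gly-GCC counts in untreated DUS2L and 11.8% and 24.7% in treated DUS2L, a log2 change of 3.46 ± 0.55 (SE; edgeR, adjusted p = 0.00125). tRNA-Gly-CCC went from 0.397% and 1.09% to 3.00% and 4.44%. tRNA-Arg-CCT went from 3.50% and 2.82% to 10.8% and 20.1% (log2 2.29 ± 0.51). In each of them both treated libraries were above both untreated ones.

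The other 5 calls were tRNA-Glu-TTC, tRNA-Trp-CCA, tRNA-Lys-TTT, tRNA-Arg-TCG and tRNA-Thr-CGT. tRNA-Trp-CCA went from 3.82% and 5.41% to 16.3% and 16.5%, and tRNA-Lys-TTT from 2.79% and 3.85% to 6.94% and 12.8%. tRNA-Arg-TCG, which was a smaller part of the treated loop, went from 6.34% and 10.9% to 16.8% and 33.2% of its own family. tRNA-Thr-CGT had 0 of 78 and 0 of 83 counts in the loop untreated, which allows up to 3.85% and 3.61%, and 4.03% and 11.1% treated, at least 2.03-fold higher. Each DUS2L call rested on both untreated libraries: without either of them, edgeR called 0 of 29, with 3 and 7 at an unadjusted p under 0.05. Leaving out all sites above 500 counts gave 3 calls (2 higher, 1 lower), one fit of all 8 libraries gave 0 with 12 at an unadjusted p under 0.05, and without the first treated library there were 17.

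Direction was also counted over families with at least 10 counts in each library of the enzyme, those without a T-loop count included. The T-loop share was higher in both treated than in both untreated libraries in 16 of 37 families in DUS2L and lower in 2. In DUS1L it was higher in 1 of 25 and lower in 7. For these counts no test was made, and they were not compared with the same counts for other stretches of the tRNA. With 2 libraries against 2, such separation can also arise by chance.

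Single sites, each 1 family at 1 position as a share of all sense counts, were tested next. In DUS2L with 5-ClUrd, 43 of 123 T-loop sites rose and 1 fell by edgeR's quasi-likelihood test. Among all 3582 sites 15.5% rose and 23.8% fell, the rRNA sites included. The 44 called sites were separated in every library, which was not compared with called sites outside the loop. The median log2 change of the loop was 2.98, or 1.43 with sites at 0 in a group set at their bound, and that of all sites was -0.56 either way. For comparison, 108 of 255 D-loop sites rose and 17 fell (median 1.51), and 119 of 191 sites at positions 1 to 9 rose and 6 fell (median 2.84). The rises covered 17 families, with 6 sites in tRNA-Arg-CCT and 5 each in tRNA-Glu-TTC, tRNA-Gly-GCC and tRNA-Lys-TTT, and every position but 60.

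tRNA-Gly-GCC position 56 held 1 and 18 counts untreated and 543 and 826 treated. Its share of sense counts went from 0.00561% ± 0.00685 to 0.187% ± 0.0574 (SD, n = 2 each), a log2 change of 4.98 ± 0.62 (SE; edgeR, adjusted p = 6.12e-13). tRNA-Gly-CCC position 56, base 58 in the sequence above, held 11 and 49 and then 434 and 716 counts, a log2 change of 3.07 ± 0.58. Both sites were high in both treated libraries only. Without sites above 500 counts, tRNA-Gly-GCC position 56 did not pass (log2 1.67, edgeR adjusted p = 0.509). That fit drops the reference that peaked at this position, so the value rests on other references of the family.

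tRNA-Glu-TTC position 57 held 31 and 122 counts untreated and 584 and 1219 treated (log2 2.37 ± 0.45). tRNA-Thr-TGT position 59 held 7 and 7 and then 419 and 680 (log2 4.99 ± 0.70; edgeR, adjusted p = 1.52e-10). tRNA-Lys-TTT position 58 held 3 and 5 and then 184 and 379 (log2 4.85 ± 0.91). Neither group overlapped the other at these sites.

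Of the 43 rises, 10 had no count in either untreated library. tRNA-Thr-CGT position 59 held 106 and 261 treated counts, at least 24.8-fold higher against an allowance of 3 counts per library. tRNA-Lys-TTT position 56, with 26 and 51 treated counts, was at least 5.20-fold higher, and tRNA-Glu-TTC position 58, with 26 and 48, at least 4.99-fold. The smallest bound among the named ones was 1.82-fold, at tRNA-Met-CAT position 54 with 8 and 19 treated counts.

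Some of the sites with most treated DUS2L counts changed less. Single references at tRNA-Val-CAC position 58 and tRNA-Asn-GTT position 59 reached 1039 and 953 counts in the second treated library. The highest count of any T-loop site was 1119, and the part of this in the smaller changes was not tested. tRNA-Val-CAC position 58 held 454 and 978 counts untreated and 2262 and 2798 treated, a log2 change of 0.59 ± 0.24 (edgeR, adjusted p = 0.0379). This call was lost in 9 of 14 alternatives, and with type I tRNA counts as library size the change was 0.12 (edgeR, adjusted p = 0.712). tRNA-Asn-GTT position 59, base 58 in the asparagine sequence above, held 66 and 215 and then 776 and 1125 (log2 1.56 ± 0.41). tRNA-Arg-TCG position 58 held 238 and 583 and then 414 and 988, and did not pass (log2 -0.44 ± 0.35, edgeR adjusted p = 0.295). Its share overlapped between the groups.

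tRNA-His-GTG position 58 was the only T-loop site called lower in DUS2L, and that call depended on the scaling. Its counts were 799 and 1069 untreated and 1042 and 1086 treated, while its share went from 0.618% ± 0.00471 to 0.290% ± 0.0129 (log2 -1.09 ± 0.27; edgeR, adjusted p = 0.000644). With TMM factors the change was -0.42 (edgeR, adjusted p = 0.311), and the site passed neither with DESeq2's size factors or test nor in one fit of all 8 libraries. It was the highest T-loop site of a single reference in each of the 4 DUS2L libraries, and no T-loop site of a single reference held more than 1119 counts in any of the 8. Its counts were thus close to the highest seen in libraries of very different depth, and the part of this in its lower share was not tested. Its neighbours at positions 57 and 59 held 96 and 224, then 190 and 424 counts, and 26 and 61, then 167 and 228 counts, and neither passed the test.

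The DUS2L site calls ended without either untreated library: edgeR then called 0 of 121 and 0 of 120 T-loop sites, with 31 and 38 at an unadjusted p under 0.05. Without the second treated library 24 were called. Such fits take the spread of the lone library from the group that kept both.

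In DUS1L with 5-ClUrd, 18 of 155 T-loop sites rose and 2 fell, where 26.8% of all 2132 sites rose and 1.5% fell. The loop's share of rises was thus below the background. Its median log2 change was 1.03 against 2.81 for all sites, and 0.40 against 0.21 with sites at 0 set at their bound. At positions 1 to 9, 91 of 214 sites rose (median 4.96), and in the D loop 94 of 249 (median 3.20).

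All 18 rises had at most 3 counts in the first untreated library and 0 in the second. tRNA-Ala-CGC position 56 held 3 and 0 counts untreated and 313 and 262 treated, a log2 change of 4.47 ± 1.19 (edgeR, adjusted p = 0.0236). tRNA-Thr-TGT position 55 held 1 and 0 and then 212 and 69 (log2 4.81 ± 1.30). Another 6 sites were at 0 in both untreated libraries, among them tRNA-Asn-GTT position 60 (113 and 44 treated counts) and tRNA-Thr-CGT position 54 (116 and 25). Their treated shares lay below the mean allowance of a 0 count in the untreated libraries, 0.0214%, so no fold is given. Position 58 had no called site in DUS1L.

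The 2 falls were tRNA-Cys-GCA position 56, with 8 and 0 untreated and 4 and 3 treated counts, and tRNA-Val-TAC position 55, with 76 and 0 and then 56 and 19. Neither was separated between the groups, since the second untreated library held none. With DESeq2's test the split of DUS1L calls was 3 higher and 17 lower, with TMM factors 6 and 10, and with DESeq2's size factors 4 and 9. The direction of the DUS1L loop as a whole thus turned with the scaling. Without the first untreated library 7 sites were called, and without the second 53 (27 higher, 26 lower).

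Of the 10 DUS1L sites with the highest treated share 8 lay at position 58 or 59, in arginine, methionine, valine, asparagine, threonine and isoleucine tRNAs, and none of the 10 passed. tRNA-Arg-TCG position 58 held 3125 and 105 counts untreated and 4268 and 4065 treated, or 1.80% ± 0.524 and 0.633% ± 0.164 of sense counts (SD, n = 2 each; log2 -1.50 ± 0.69, edgeR adjusted p = 0.108). tRNA-Met-CAT position 58 held 2440 and 112 and then 3227 and 3077, or 1.61% ± 0.121 and 0.479% ± 0.124 (log2 -1.74 ± 0.71, edgeR adjusted p = 0.0798). At both, the shares were lower in both treated libraries. In each treated library 4 references of tRNA-Arg-TCG and 3 of tRNA-Met-CAT held more than 900 counts at position 58. In the first untreated library 1 reference of each did. The highest such count, 1119 at tRNA-Met-CAT, was the highest of any T-loop site, and the part of this in the lower shares was not tested. tRNA-Arg-CCT position 58 held 1791 and 10 and then 3441 and 3986 counts, with a standard deviation between untreated shares (0.782%) above their mean (0.688%).

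**Figure D4:**
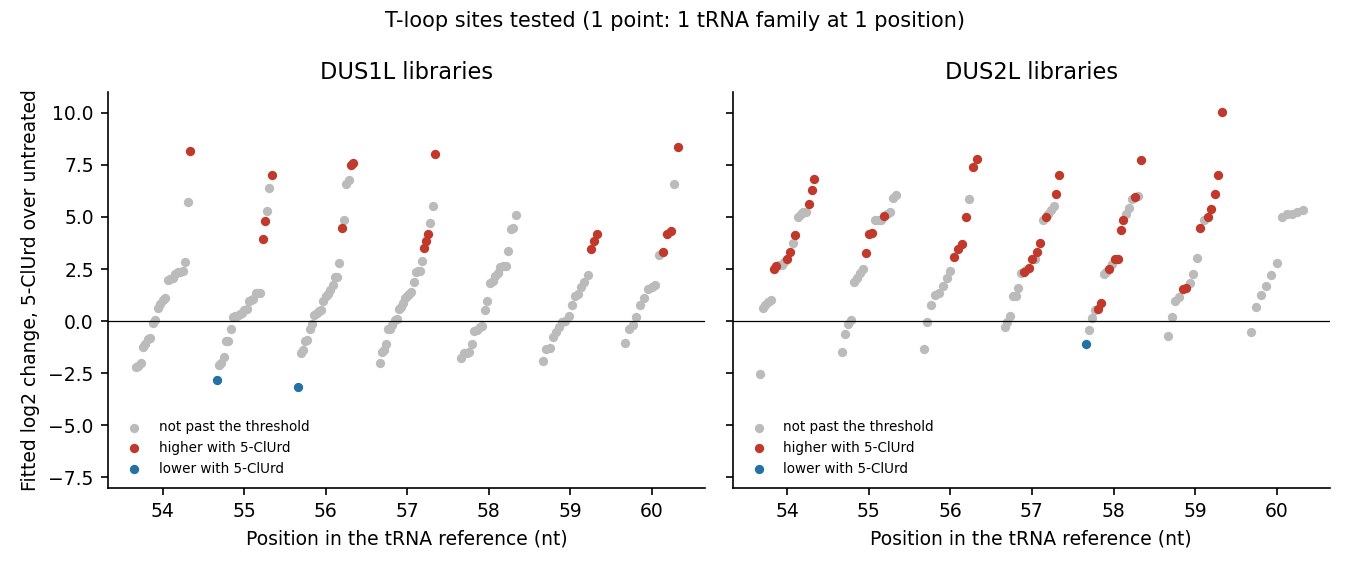
Fitted log2 change with 5-ClUrd (y axis) of each tested T-loop site by position (x axis), DUS1L on the left and DUS2L on the right, with sites past the threshold in red (higher) and blue (lower); points at one position are spread sideways in order of value. In DUS2L 111 of 123 sites lie above 0 and in DUS1L 107 of 155, against 1586 of 3582 and 1749 of 2132 of all sites. Of the T-loop sites, 36 in DUS2L and 17 in DUS1L had no count in either untreated library, so these could only lie above 0.

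The change with 5-ClUrd differed between the enzymes at 9 T-loop sites of 173 by a test of the difference itself: 8 higher and 1 lower in DUS2L, against 0.814% and 1.7% of all 4424 sites. The median difference was 1.94, and that of all sites -2.10. The 8 were tRNA-Thr-AGT, tRNA-Thr-CGT and tRNA-Thr-TGT at position 59, tRNA-Arg-CCT at 54 and 58, tRNA-Gly-GCC at 56, tRNA-Met-CAT at 58 and tRNA-Trp-CCA at 57, and the one lower was tRNA-His-GTG at 58. tRNA-Trp-CCA position 57 held 1025 and 11, then 1039 and 1014 counts in DUS1L and 24 and 57, then 404 and 715 in DUS2L. At each of the 9 sites but tRNA-Gly-GCC position 56, a single reference held more than 900 counts in some library. The highest T-loop count was 1119, and the part of this in the differences was not tested. Leaving out sites above 500 counts gave 3 calls, and leaving out either untreated DUS2L library gave 0, with 21 and 20 at an unadjusted p under 0.05 (edgeR). Without the sites above 500 counts, the values at tRNA-Gly-GCC position 56 (-0.93) and tRNA-Thr-TGT position 59 (-2.27) were negative. There the fit had dropped the reference that peaked at each site, so these values rest on other references of the families. Without the first untreated DUS1L library 5 sites were called and tRNA-Gly-GCC position 56 stood at -4.25, without the second 26 were called, and without either treated DUS1L library or the second treated DUS2L library 2.

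Between the treated libraries, 26 of 173 T-loop sites were higher in DUS2L and 98 lower, against 22.9% higher and 19% lower of all 4424 sites. The 124 called sites did not overlap in any library, which was not compared with called sites outside the loop either. The median was -2.69 on the log2 scale, where that of all sites was 0.69. All 7 positions were lower in DUS2L in tRNA-Arg-CCG, tRNA-Arg-CCT, tRNA-Arg-TCG, tRNA-Arg-TCT, tRNA-Ile-AAT and tRNA-Tyr-GTA. The higher ones were 6 sites each of tRNA-Glu-TTC and tRNA-His-GTG, 5 each of tRNA-Gly-CCC and tRNA-Gly-GCC, 2 of tRNA-Asp-GTC, and 1 each of tRNA-Gln-TTG and tRNA-Glu-CTC. DESeq2's size factors gave 42 higher and 27 lower, so the balance between the enzymes turned with the scaling. Without the first treated DUS1L library 78 sites were called, and without the first treated DUS2L library 80.

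tRNA-Glu-TTC position 57 held 6 and 16 counts in treated DUS1L and 584 and 1219 in treated DUS2L, a log2 difference of 7.08 ± 1.01 (edgeR, adjusted p = 1.09e-10). tRNA-Arg-TCT position 57 held 1443 and 1206 in DUS1L and 7 and 10 in DUS2L (log2 -6.40 ± 0.93). tRNA-Phe-GAA position 56, the last base of the loop with counts in the phenylalanine sequence above, held 251 and 137 and then 0 and 1. In each case the libraries of one enzyme stood far above those of the other.

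Some sites held counts in the treated libraries of one enzyme only. tRNA-Glu-TTC position 55 held 0 and 0 counts in treated DUS1L and 54 and 99 in treated DUS2L, at least 45.6-fold higher, and tRNA-Asp-GTC position 55 held 0 and 0 and then 28 and 41, at least 20.6-fold. tRNA-Ile-AAT position 60 held 101 and 41 in DUS1L and 0 and 0 in DUS2L, at least 12.1-fold lower. The whole tRNA differed in the same way in most families: of 33 with T-loop counts, 11 took a higher and 19 a lower share of all counts in treated DUS2L, and 26 lay on the same side for the tRNA and for its loop. As a share of the family's own counts, the loop was lower in 13, higher in 3 and overlapping in 17. These counts were not tested or compared with other stretches of the tRNA.

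Peaks called by the authors, intervals of 2 to 6 nt, gave the same order of enzymes. Of the peaks on type I tRNAs in each library, 19 of 92 and 8 of 34 lay on the T loop in untreated DUS1L, 33 of 170 and 36 of 147 in treated DUS1L, 3 of 81 and 8 of 83 in untreated DUS2L, and 12 of 123 and 17 of 132 in treated DUS2L. A T-loop peak was present in both libraries for 4 families in untreated DUS1L (tRNA-Arg-CCT, tRNA-Arg-TCG, tRNA-Asn-GTT and tRNA-Thr-AGT), 17 in treated DUS1L, 2 in untreated DUS2L (tRNA-Lys-TTT and tRNA-Val-CAC) and 7 in treated DUS2L. The 7 were these last families with tRNA-Ala-AGC, tRNA-Arg-CCT, tRNA-Glu-TTC, tRNA-Gly-CCC and tRNA-Gly-GCC. The number of type I peaks was lowest in the shallowest library and highest in the deepest.

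Positions just outside the window placed its edges. Over all libraries position 53 held 17733 counts on 84 references, position 54 held 24489 on 81, position 58 held 82080 on 70, position 60 held 6746 on 45 and position 61 held 2568 on 40. The 5′ edge of the window thus cut through a stretch with counts, while at the 3′ edge the counts had nearly ended. In leucine and serine tRNAs, whose long variable arm moves the T loop further along, positions 54 to 60 held 0.248% to 4.20% of counts, and the loop placed by gene length held 35.1% and 25.2% in untreated DUS1L, 17.1% and 18.4% in treated DUS1L, 7.98% and 10.4% in untreated DUS2L, and 7.54% and 13.1% in treated DUS2L. Here too each DUS1L library was above each DUS2L library of the same treatment.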

How the data were processed

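The deposited site files give raw whole-number counts of crosslink events per position and strand, 1 file per library, and the peak files carry a count per interval; the authors applied no normalization that the values show. STAR 2.7.0f and hg38 were used, per the submitters' processing notes. How molecular identifiers, sites and peaks were handled is not stated in the labels. Counts were summed by tRNA family and position. A site entered a fit when its libraries together held 10 counts or more. Tests used the quasi-likelihood F test of edgeR 4.0.16 in R 4.3.3, scaled to total sense counts, with Benjamini-Hochberg adjustment over all tRNA and rRNA sites and a threshold of 0.05. Effects of 5-ClUrd came from each enzyme's 4 libraries, and comparisons of the enzymes from one fit of all 8. Family windows, 13 per tRNA, used the family's total (0.5 added) as offset. The code of the fits was run on simulated counts with planted changes, which does not measure error rates in these data. Named were, per comparison, the 8 largest rises and falls among called and separated sites, each enzyme's 10 sites of largest treated share, the 12 families with most T-loop counts and the 6 largest window changes each way; others were chosen after their values were seen. The members, lists and rule were chosen with earlier results of these data known. Alternatives were TMM, DESeq2 1.42.0, other count minimums, type I counts as library size, the replicate number as a block, single references, shifted windows, sites above 500 counts left out, and leaving out each library. Alternatives chosen after seeing the data were the window by gene length, references with a count beyond position 60, and leaving out tRNA-His-GTG. Of 357 type I gene names 334 matched RefSeq. Figures were made in Python 3.11.15 with matplotlib 3.10.9, and tables with pandas 2.3.3.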

Additional observations from a re-analysis of the deposited data

Results flagged for a closer look

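At 9 T-loop sites the 5-ClUrd effect in DUS2L differed from that in DUS1L by edgeR's test of the difference (values are log2 differences, DUS2L effect minus DUS1L effect, ± SE). The difference was 8.13 ± 2.16 at tRNA-Thr-CGT position 59, 5.50 ± 1.11 at tRNA-Thr-TGT position 59 and 4.58 ± 1.14 at tRNA-Thr-AGT position 59. It was 4.59 ± 0.94 and 3.27 ± 0.89 at tRNA-Arg-CCT positions 54 and 58. At tRNA-Gly-GCC position 56 it was 4.56 ± 1.26, at tRNA-Trp-CCA position 57 it was 4.07 ± 0.99 and at tRNA-Met-CAT position 58 it was 2.62 ± 0.80. The one negative difference was -3.25 ± 0.98 at tRNA-His-GTG position 58. Counts were close to the highest of any T-loop site at all of these sites but tRNA-Gly-GCC position 56. At the others a reference held more than 900 counts in a treated DUS1L library, or in DUS2L libraries at tRNA-His-GTG position 58. Among them tRNA-Thr-TGT position 59 held 1084 and 1033 and tRNA-Thr-CGT position 59 held 956 and 960 in the treated DUS1L libraries. The part of this in the differences was not tested. Each of the 9 lost its call in at least 3 of its 17 or 18 alternatives. tRNA-Arg-CCT position 58 lost it in 14 of 18, TMM factors, DESeq2's size factors and test, a minimum of 1 count and the replicate block among them, with differences down to 0.90. tRNA-Met-CAT position 58 lost it in 11 of 17, and tRNA-His-GTG position 58 in 9 of 17. The groups hold 2 libraries each, so none was searched for a library apart from the others.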

How the results depend on the processing

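The sites called with 5-ClUrd were 20 in DUS1L as reported, 13 with DESeq2 size factors, 32 at a minimum of 50 counts, 52 by single references and 12 with all 8 libraries in one fit, and 7 to 53 with a library left out. For DUS2L the 44 calls ranged from 0 to 45 with a library left out, and were 63 with TMM factors, all higher. The 9 differences between the enzymes' effects became 3 with TMM factors, 3 with the replicate block, 14 by single references and 3 without sites above 500 counts, and 0 to 26 with a library left out. Between treated libraries the 124 became 69 with DESeq2 size factors, 46 with DESeq2's test (32 higher, 14 lower), 73 with the replicate block and 264 by single references, and 78 to 131 with a library left out. The 0 DUS1L windows became 8, all lower, with TMM factors on family totals, 1 at a minimum of 1 count and 1 without sites above 500 counts, and 0 to 12 with a library left out. The 8 DUS2L windows became 3 with TMM on family totals, 3 without sites above 500 counts and 0 with all 8 libraries in one fit, and 0 to 17 with a library left out.

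The T-loop share difference in DUS1L (-3.47 points) was 2.82 points in the window set by GTTCNANNC and 0.51 points over references with a count beyond position 60, and ranged from -10.3 to 3.41 points with a library left out. In DUS2L (2.56 points) it was -0.34 points in the GTTCNANNC window, which holds only the few references with a sequence, and 0.85 to 4.28 points with a library left out.

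TMM factors moved the median log2 change of all sites from 2.81 to 1.76 in DUS1L and from -0.56 to 0.11 in DUS2L, and DESeq2's size factors moved it from 0.69 to 2.49 between treated libraries. Of 56 named results past the threshold 13 stayed past it under each alternative that tested them, all between treated libraries, in tRNA-Arg-TCT, tRNA-Asp-GTC, tRNA-Glu-TTC, tRNA-Gly-CCC, tRNA-Ile-AAT and tRNA-Phe-GAA. Those that changed sign, with the reported or the turned value past the threshold, were tRNA-Arg-TCG position 57 in DUS1L (-0.38, but -1.30 to 4.19 with a library left out, the highest without the first untreated DUS1L library), tRNA-Met-CAT position 58 in DUS2L (0.87, but -0.74 without sites above 500 counts), and, in the difference of effects, tRNA-Gly-GCC position 56 (-0.93 without sites above 500 counts, -4.25 to 7.40 with a library left out, the lowest without the first untreated DUS1L library) and tRNA-Thr-TGT position 59 (-2.27 without sites above 500 counts). A further 5 sites changed sign with neither of these past it: in DUS1L tRNA-Arg-CCT position 58 (-1.33 to 2.09), tRNA-Asn-GTT position 59 (-0.77 to 0.77), tRNA-Ile-AAT position 59 (-1.32 to 0.89) and tRNA-Thr-AGT position 59 (-0.23 to 1.24), and in DUS2L tRNA-Arg-TCG position 58 (-1.23 to 0.14). The causes were not tested. Leaving out sites above 500 counts drops single references within a family, so those values rest on the family's other references. Same-numbered libraries did not deviate together (correlation 0.089 in DUS1L and -0.023 in DUS2L over 4424 sites), so the numbers were not taken as pairs; with the replicate block 18 DUS1L and 34 DUS2L sites were called.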
